A study of Homo sapiens with 21 samples.

Results

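Cells of the human line HepG2 kept for 24 h with 10 µM caffeine were compared with cells of the same line kept for the same time without caffeine. The members were the 3 libraries whose titles give 10 µM and the 3 whose titles give 0 µM, 6 of the 21 libraries in the series. HepG2 is an established line from a human liver tumour, and it keeps much of the secretory and lipid-handling programme of a hepatocyte. All groups were held in serum-free medium during exposure, so the control cells had lost serum too, and caffeine was dissolved in the medium itself. The other libraries came from 0.01, 0.1, 1, 100 and 1000 µM caffeine, with 3 biological replicates in each group per the labels, and counts were tested in 1 fit over all 21. A level of 10 µM is within what plasma can reach after coffee, and the question was which functions differed at that dose.

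Caffeine is a methylxanthine. It blocks adenosine receptors, which act through the cyclic AMP pathway, and at far higher concentrations it also inhibits phosphodiesterases, releases calcium from the endoplasmic reticulum and inhibits kinases of the DNA damage response. The liver clears it through CYP1A2, an enzyme under the aryl hydrocarbon receptor, and hepatocytes make most plasma proteins, ketone bodies and bile acids and much of the cholesterol of the body.

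The libraries did not all resemble each other in mitochondrial reads, and this split ran along the comparison. Mitochondrial features took 10.8% to 14.2% of counts in the 3 control libraries and 4.82% to 4.94% in the 3 libraries at 10 µM. Replicate 3 at 1 µM had 4.75%, whereas replicates 1 and 2 at the same dose had 10.5% and 11.6%. MT-ND4 reads per MT-CO1 read were 0.492 to 0.570 in controls, 0.408 to 0.442 at 10 µM and 0.421 in replicate 3 at 1 µM. Clustering on 13 mitochondrial mRNAs placed all controls in a set A of 11 libraries and all 10 µM libraries in a set B of 7, which also held replicate 3 at 1 µM and no control. No batch is named in the labels, and dose and library set cannot be told apart between these 6 libraries. Replicate 3 at 1 µM, chosen for its mitochondrial share, received a lower dose, and its values are set beside many of the results below.

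**Figure D1:**
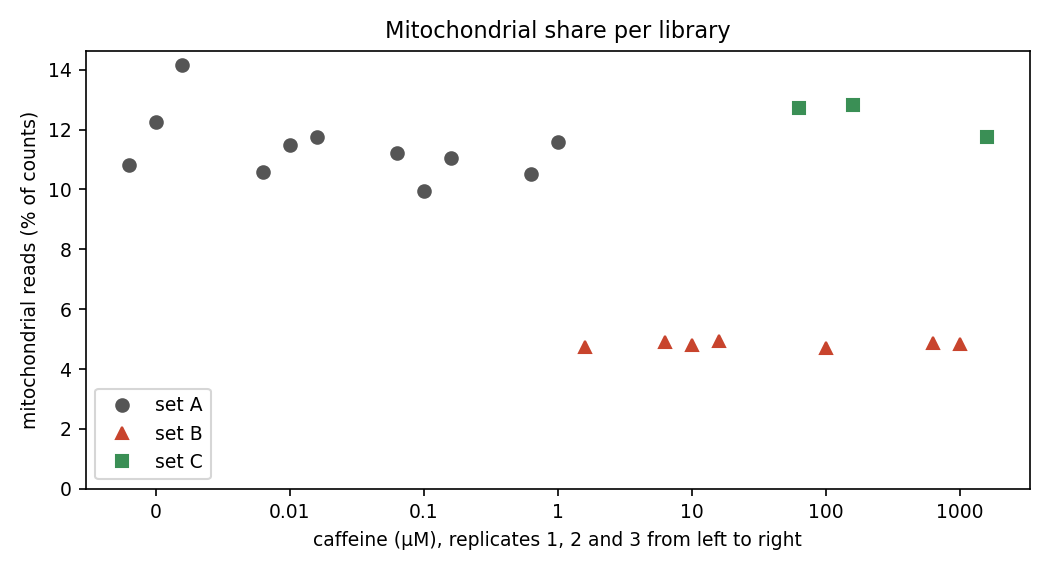
Mitochondrial reads as a percent of all counts (vertical axis) in each of the 21 libraries, ordered by caffeine dose in µM (horizontal axis, doses evenly spaced, replicates 1, 2 and 3 from left to right), with the marker showing the library set. The 10 µM libraries lie at 4.82% to 4.94%, beside replicate 3 at 1 µM at 4.75%, and the controls at 10.8% to 14.2%.

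Total counts were 27867586 to 39571761 in the control libraries, 32258970 to 36184858 at 10 µM and 34891395 in replicate 3 at 1 µM. All 10 HepG2 identity markers were present, the lowest at a mean of 46.1 CPM, the counts of a feature scaled to a common library size, which is the scale of all levels given here. Of markers for other cells, the 8 fibroblast genes summed to 37.9 to 42.8 CPM in controls and 38.3 to 42.0 at 10 µM with COL1A2 and LUM at 0, and the 5 endothelial genes in the table stayed under 1 CPM with TEK at 0. The 6 blood genes in the table summed to 936 to 1062 CPM in controls and 1263 to 1311 at 10 µM, nearly all of it LYZ, with CD163 and CD3E at 0. The 5 bile duct genes in the table summed to 1333 to 1440 CPM in controls and 972 to 1002 at 10 µM, of which SPP1 made up 584, 645 and 738 CPM and 371, 353 and 346 CPM, with KRT7 at 0. Replicate 3 at 1 µM had 1268 and 1121 CPM for these last sums. The titles name HepG2 alone as the cells, and the source of these transcripts was not tested. In bulk RNA, fewer expressing cells and less RNA per cell cannot be told apart. Among controls, replicate 3 differed most from the others, with a chi-square per gene of 50.9 and 42.0 against replicates 1 and 2, which differed from each other by 9.76.

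MICOS10 and CYP51A1 were taken as markers of the 10 µM libraries from earlier results on these data, so their calls are no independent support. MICOS10 encodes a small subunit of the complex that shapes the cristae of the inner mitochondrial membrane, and CYP51A1 encodes lanosterol demethylase, a step of cholesterol synthesis. MICOS10 rose 3.13-fold and CYP51A1 1.84-fold over control, and replicate 3 at 1 µM had both at the level of the 10 µM libraries.

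MICOS10 (ENSG00000173436.15, GRCh38 chr1:19484403-19629821, plus strand) was at 13, 13 and 11.9 CPM in the 3 controls and 39.8, 39.2 and 39.5 CPM at 10 µM. At 1 µM it was at 17.9 and 13.3 CPM in replicates 1 and 2 and 39.4 CPM in replicate 3. The groups did not overlap, and the lone high library at 1 µM lay within the range of the 10 µM libraries. The log2 fold change of 10 µM against control was 1.65 ± 0.27 (standard error, SE; edgeR adjusted p = 0.00221). The log2 difference between 10 µM and replicate 3 at 1 µM was 0.00, with a 95% interval from -0.38 to 0.39. Over all doses, MICOS10 was at 11.9 to 17.9 CPM in set A, 33.1 to 40.0 CPM in set B and 36.2 to 56.5 CPM in the remaining 3 libraries. The read-through transcript MICOS10-NBL1, which overlaps MICOS10 on the same strand, was at 22.0 to 25 CPM in controls and 22.0 to 29.9 CPM at 10 µM, and how shared reads were assigned is not given in the sources used here.

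CYP51A1 (ENSG00000001630.17, GRCh38 chr7:92112151-92134803, minus strand) was at 94.7, 68.1 and 96.7 CPM in controls and 151, 155 and 171 CPM at 10 µM. At 1 µM it was at 80.3 and 92 CPM in replicates 1 and 2 and 159 CPM in replicate 3. Control replicate 2 was the lowest library, and the 10 µM libraries all lay above the highest control. Without that control CYP51A1 was not called (edgeR adjusted p = 0.0662), nor without 10 µM replicate 3 (edgeR adjusted p = 0.0536). The log2 fold change was 0.88 ± 0.22 (SE; edgeR adjusted p = 0.0155), and the difference from replicate 3 at 1 µM was 0.00 with a 95% interval from -0.49 to 0.49. CYP51A1 ranged from 68.1 to 100.9 CPM in set A, from 113 to 234 CPM in set B and from 88.7 to 155 CPM in the other 3 libraries, so sets A and B did not overlap for either gene. Tested loci ENSG00000285772.1 and ENSG00000285953.1 overlap CYP51A1 on the same strand, with means of 5.95 and 46.9 CPM in controls and 4.12 and 8.10 CPM at 10 µM, and neither was called (edgeR adjusted p = 0.100 and 0.0843).

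**Figure D2:**
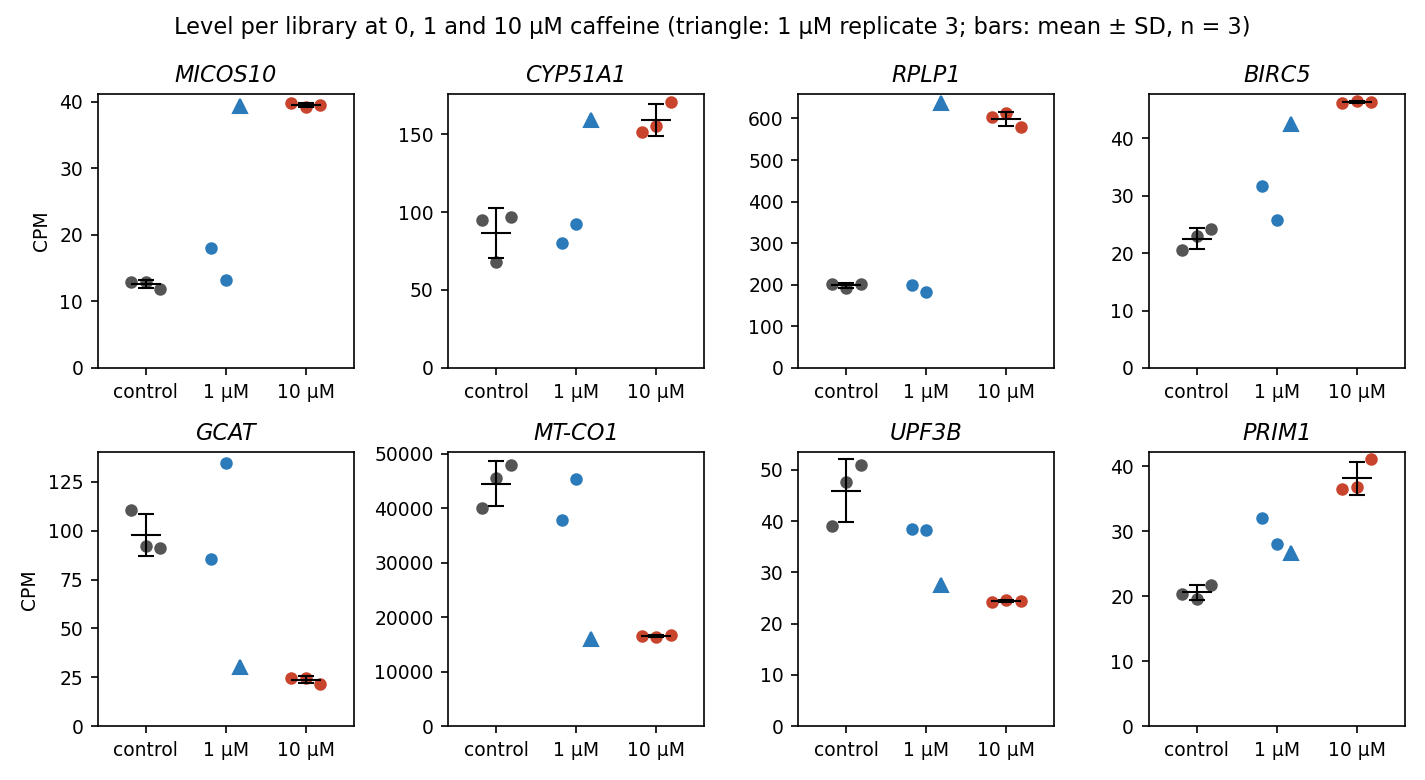
CPM (vertical axes, each from 0) of 8 named genes in the single libraries of control, 1 µM and 10 µM caffeine, with bars for the mean ± SD of the 3 libraries in the control and 10 µM groups and a triangle for replicate 3 at 1 µM. For MICOS10, RPLP1 and GCAT the triangle lies beside the 10 µM libraries, and for PRIM1 at 26.7 CPM it lies below replicates 1 and 2 at 32.0 and 28.1 CPM.

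Across the transcriptome, 2650 of 17951 tested features passed an adjusted p of 0.05 at 10 µM against control (14.8%). Of these, 1305 were higher (7.27%) and 1345 lower (7.49%), and most differences were small, with a median log2 difference of 0.51 in the direction of the call. Only 131 rose and 255 fell by more than 2-fold. Protein-coding genes made up 1140 of the rises and 1022 of the falls, from 13002 tested, whereas unannotated loci gave 46 rises and 166 falls from 1697 tested. Control and 10 µM libraries did not overlap for 2632 of the 2650 called features and for 7168 of all those tested. Among the 11109 features with a mean of at least 5 CPM, 19.2% were called. The called shares of the gene lists below stand beside 14.8% and 19.2% as a description, and no list was tested against either. Leaving out 1 library lowered the count by over 1.5 times in 5 of 6 cases, to 1732 and 1624 without control replicates 1 and 2 and to 1039, 1203 and 1288 without 10 µM replicates 1, 2 and 3. Of 163 called genes named here, 53 kept their call without each of the 6 libraries in turn and 110 lost it in at least 1 case.

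Replicate 3 at 1 µM differed from replicates 1 and 2 at 1 µM in the same direction as 10 µM from control for most of the called features. It stood above replicates 1 and 2 for 1243 of the 1305 features higher at 10 µM, and below them for 1266 of the 1345 lower ones, together 94.7%. Among the 15301 features not called, 10885 matched in direction, or 71.1%. These 2 contrasts share no library. In the direction of the call, the median log2 difference was 0.35 for replicate 3 against replicates 1 and 2, and 0.04 for 10 µM against replicate 3. Replicate 3 lay on the control side of all 10 µM libraries for 42.2% of called features, replicate 1 for 89.9% and replicate 2 for 92.0%. For 920 called features replicate 3 lay within the range of the 10 µM libraries, and for 611 beyond it.

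The test of replicate 3 against replicates 1 and 2 at 1 µM called 215 features (1.20%), of which 117 were higher (0.652%) and 98 lower (0.546%), and 40 without 1 µM replicate 2. Of these, 178 were also called at 10 µM against control, all in the same direction, which is 82.8% of the 215 and 6.72% of the 2650. The test of 10 µM against replicate 3 called 2 features (0.0111%) with edgeR, and 441 (2.46%) had an unadjusted p under 0.05. None of the 2650 was called in the same direction against both control and replicate 3. With 1 library on a side this comparison was less precise, with a median SE of 0.208 against 0.156 for 10 µM against control, and it assumes that the lone library varies like the replicated groups. Adding the library set as a term to the fit over all libraries left 5 called features (0.0279%), and 886 had an unadjusted p under 0.05. The shift between sets A and B can be estimated only within the 1 µM group, so that fit rests on replicate 3 as well.

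**Figure D3:**
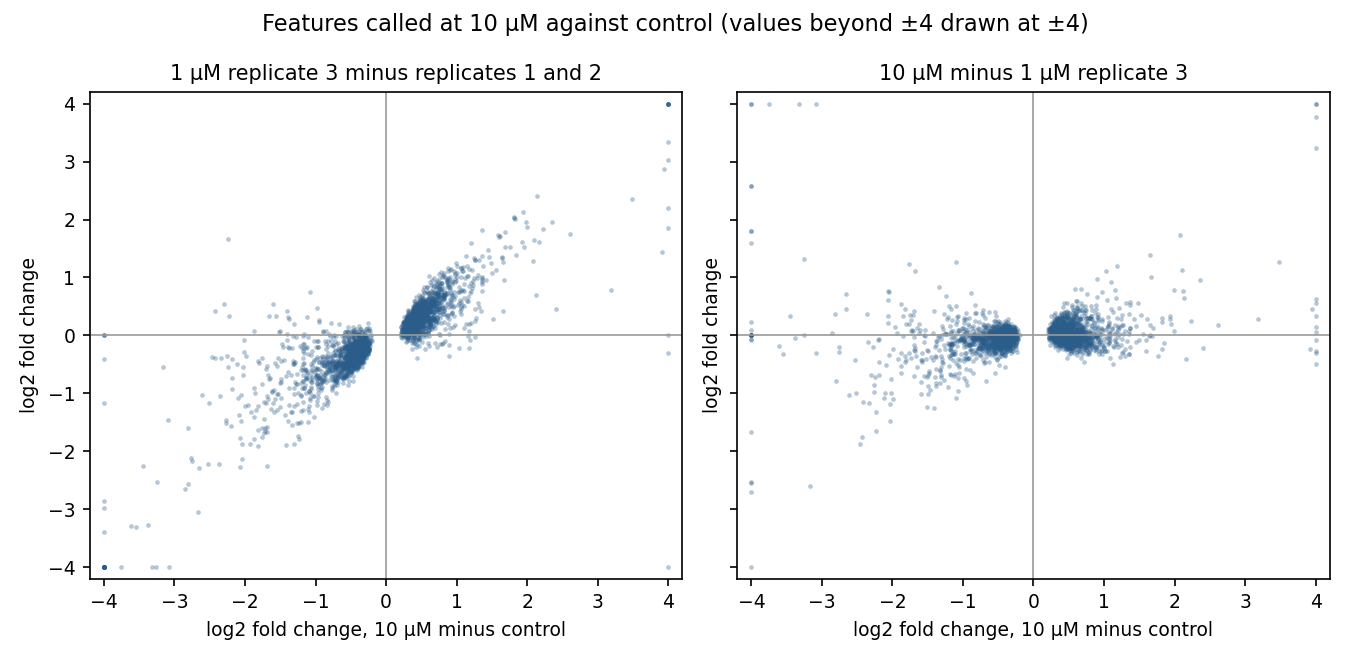
Log2 fold change of 10 µM against control (horizontal axes) for the 2650 called features, against the log2 difference of replicate 3 from replicates 1 and 2 at 1 µM (left) and of 10 µM from replicate 3 at 1 µM (right), each point being 1 feature and values beyond 4 drawn at the edge. On the left 94.7% of points lie in the quadrants of equal sign; on the right, where both axes hold the 10 µM libraries, points lie around 0, with a median of 0.04 toward the call.

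The largest rises among called genes with a symbol and at least 5 CPM were those of CRCP, MICOS10, TIMM13, RPLP1, HEPN1, POLR1H, MRPS16 and S100A6. They lay between 2.30-fold and 3.20-fold. Several encode small proteins of the mitochondrion, the ribosome or RNA polymerases. RPLP1, an acidic stalk protein of the large ribosomal subunit, was at 203, 192 and 202 CPM in controls and 605, 613 and 580.0 CPM at 10 µM, with 201 and 181 CPM in replicates 1 and 2 at 1 µM and 636 CPM in replicate 3. Its log2 fold change was 1.59 ± 0.35 (SE; edgeR adjusted p = 0.0100). MRPS16, a protein of the small mitochondrial ribosomal subunit, was at 44.1, 40.1 and 40.2 CPM in controls and 98.1, 96.4 and 97.3 CPM at 10 µM, a log2 fold change of 1.23 ± 0.18 (edgeR adjusted p = 0.00116), and at 87.7 CPM in replicate 3 at 1 µM. TIMM13, a chaperone of the mitochondrial intermembrane space, was at 4.68, 4.83 and 4.98 CPM in controls, 16.5, 16.6 and 10.8 CPM at 10 µM and 17.7 CPM in replicate 3 at 1 µM. Groups that did not overlap were a condition of this choice, and genes typed or named as pseudogene or antisense were left out. TIMM13 lost its call without control replicate 1 or 10 µM replicate 1 or 2 (edgeR adjusted p = 0.0502 to 0.0583). CRCP and POLR1H, which encode subunits of RNA polymerases III and I, rose 3.20-fold and 2.38-fold from control means of 3.09 and 3.20 CPM. HEPN1, a liver transcript antisense to HEPACAM, rose 2.68-fold, and S100A6, a calcium-binding protein, 2.30-fold. For 4 of the 8 genes (CRCP, MICOS10, TIMM13 and MRPS16) a tested neighbour overlaps on the same strand, so their counts depend on how reads were assigned. HEPN1 and POLR1H have a tested neighbour on the opposite strand, which matters too if strand was not used in the counting. Among the other called genes named here, RPLP1, HEPN1, POLR1H and MRPS16 kept their calls without each of the 6 libraries in turn, CRCP lost it in 1 to 3 of the 6 cases, and S100A6 lost it in 4 to 6. S100A6 was not called without a filter on low counts.

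By the same choice, the largest falls were those of APOLD1, LINC01823, ASDURF, MT-ATP8, HSPA1B, TRANK1, GCAT and C3orf20. APOLD1 and LINC01823 were not called by limma-voom (adjusted p = 0.101 and 0.0869), and APOLD1 was not called by edgeR without 10 µM replicate 1 (adjusted p = 0.0532). GCAT, a mitochondrial enzyme that makes glycine in the breakdown of threonine, was at 110.4, 92.1 and 91.1 CPM in controls and 24.8, 24.7 and 21.6 CPM at 10 µM. This was 0.242 times the control level, with 85.5 and 134 CPM in replicates 1 and 2 at 1 µM and 30.0 CPM in replicate 3. The log2 fold change of GCAT was -2.05 ± 0.35 (SE, edgeR adjusted p = 0.00339), and no library of set A reached down to a library of set B. APOLD1, an endothelial and activity-induced gene, was at 11.6, 22.8 and 23.3 CPM in controls and 0.175, 0.128 and 1.71 CPM at 10 µM, and at 0.214 CPM in replicate 3 at 1 µM. The DEAD-box gene DDX47 overlaps APOLD1 on the same strand and rose over the same libraries, from 20.9 to 28.3 CPM in controls to 39.9 to 43.8 CPM at 10 µM (log2 fold change 0.70, edgeR adjusted p = 0.0142), a call lost without control replicate 2 or 10 µM replicate 1. The low APOLD1 counts came with more reads of its neighbour, and the assignment of reads between them was not tested. LINC01823, a long noncoding RNA, and ASDURF, a short reading frame upstream of ASNSD1, fell to 0.0543 and 0.0551 times control, with at most 1.22 and 1.74 CPM at 10 µM. TRANK1 and C3orf20 fell to 0.220 and 0.272 times control. Of the other genes above that passed the test, ASDURF, MT-ATP8, HSPA1B, TRANK1, GCAT and C3orf20 kept their calls without each of the 6 libraries in turn.

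**Figure D4:**
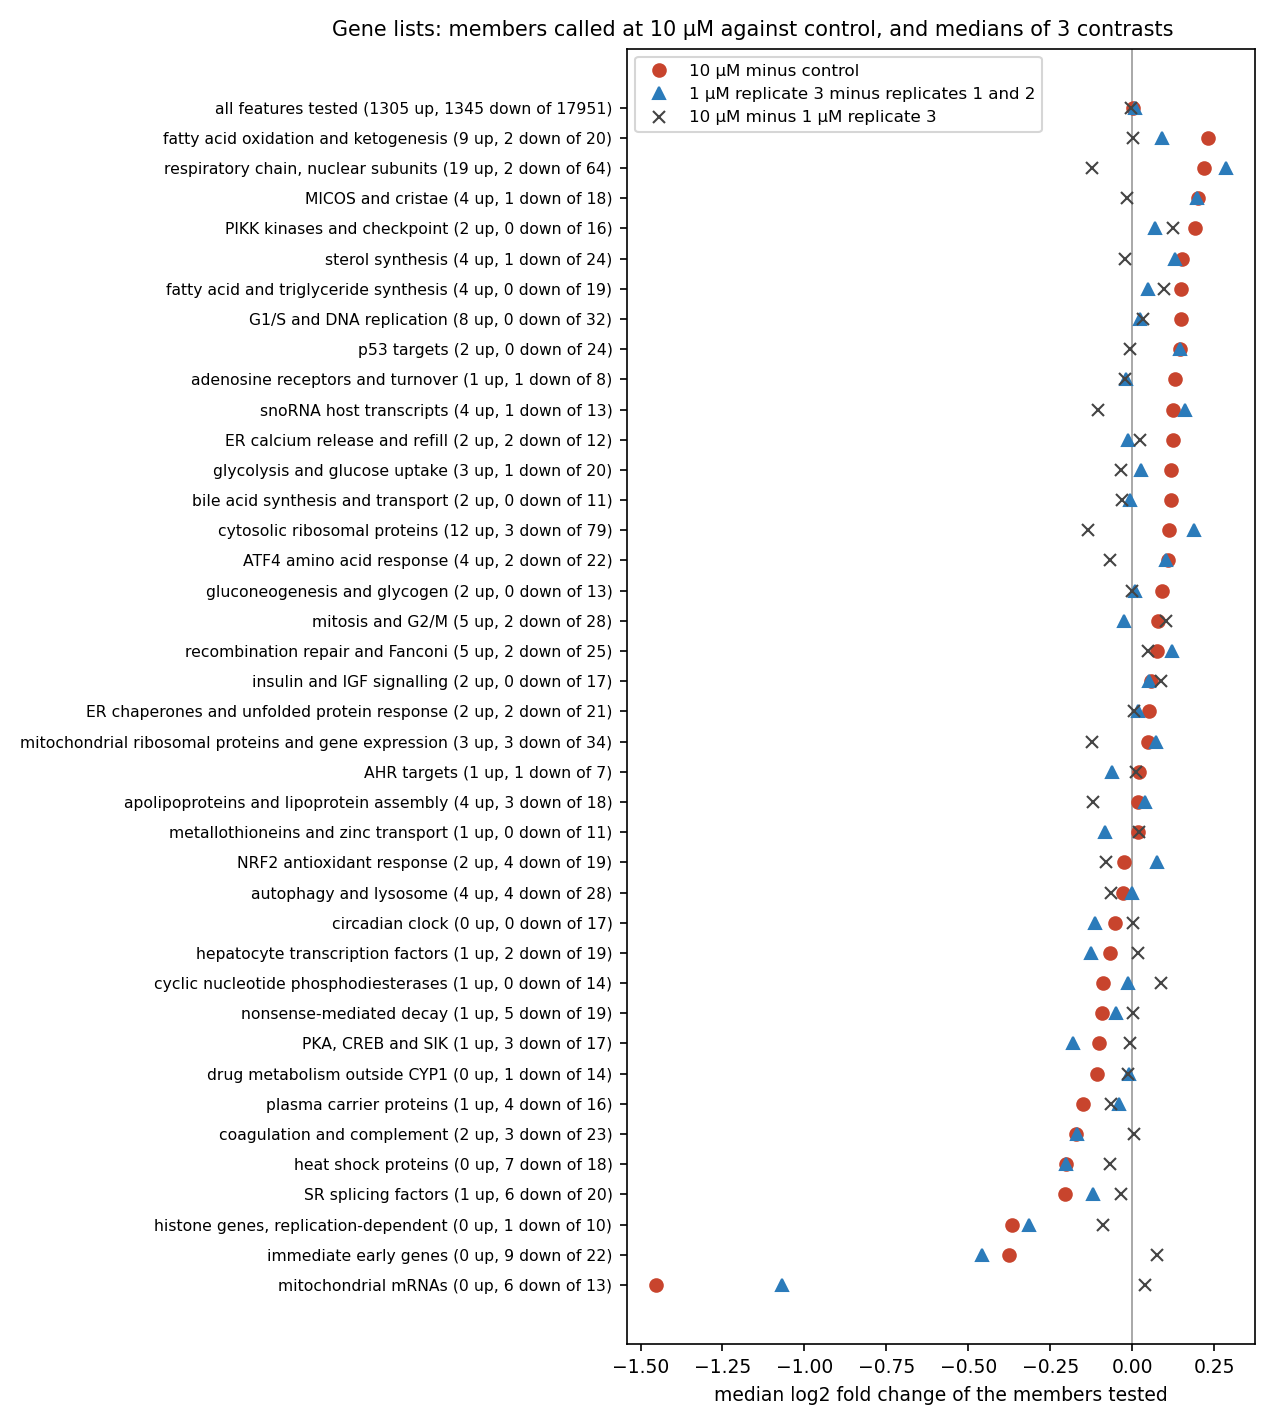
Median log2 fold change of the tested members (horizontal axis) of each gene list, named on the left with the numbers called higher and lower at 10 µM against control, for 3 contrasts: 10 µM minus control (circles), replicate 3 minus replicates 1 and 2 at 1 µM (triangles) and 10 µM minus replicate 3 at 1 µM (crosses). Mitochondrial mRNAs lie lowest at -1.45; their triangle and cross follow from the choice of replicate 3 by mitochondrial share.

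Genes of the mitochondrial genome fell where they were called, and most called nuclear genes of the respiratory chain rose. All 13 mRNAs of mitochondrial DNA had lower values, 6 of them called lower by edgeR, 8 by DESeq2 and 5 by limma-voom, and the median log2 fold change was -1.45 against 0.00 over all features tested. MT-CO1, the catalytic subunit of cytochrome oxidase, was at 39969.6, 45640.4 and 47990.5 CPM in controls and 16541, 16390.1 and 16752 CPM at 10 µM, with 37837 and 45428 CPM in replicates 1 and 2 at 1 µM and 15999 CPM in replicate 3. Its log2 fold change was -1.43 ± 0.29 (SE; edgeR adjusted p = 0.00632), with no overlap of the groups. MT-CO3 fell by 1.69 on the log2 scale and MT-ATP8, which overlaps MT-ATP6, by 3.09. MT-ATP8 stood at 213, 302 and 822 CPM in controls, so its size rests much on control replicate 3, and at 48.7, 54.1 and 54.6 CPM at 10 µM. Because replicate 3 at 1 µM was chosen for its mitochondrial share and the sets were built on these mRNAs, its low values here restate that choice. When 1 of the 6 libraries was left out in turn, MT-CO1 kept its call throughout, and MT-CO3 lost it in 4 to 6 of the 6 cases. MT-CO3 was not called without a filter on low counts.

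Nuclear genes of the respiratory chain gave 19 rises and 2 falls of 64, 32.8% called against 14.8% of all features, with a median log2 fold change of 0.22. NDUFA2, a subunit of complex I, was at 9.96, 10.0 and 11.7 CPM in controls and 23.6, 23.8 and 18.8 CPM at 10 µM, a log2 fold change of 1.06 ± 0.22 (edgeR adjusted p = 0.00533). ATP5F1B, the catalytic beta subunit of ATP synthase, was at 528, 551 and 535 CPM in controls and 792, 749 and 763 CPM at 10 µM, 1.43-fold higher, and NDUFA8 of complex I rose 1.58-fold. All 3 had a replicate 3 value at 1 µM (24.2, 786 and 37.7 CPM) above both other 1 µM replicates. The 2 that fell were UQCRB of complex III, by 0.72 on the log2 scale, and NDUFS5 of complex I, by 0.45. Replicate 3 at 1 µM exceeded replicates 1 and 2 by a median of 0.29 over the list, and 10 µM differed from replicate 3 by -0.12. With each of the 6 libraries left out in turn, NDUFA2, ATP5F1B and NDUFA8 kept their calls throughout, UQCRB lost it in 1 to 3 of the 6 cases, and NDUFS5 lost it in 4 to 6. NDUFS5 was not called without a filter on low counts.

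Of 18 genes of the cristae and their assembly, 4 rose and 1 fell, a called share of 27.8% against 14.8% of all features. Beside MICOS10, MICOS13, another subunit of the same complex, went from 4.28, 4.91 and 6.02 CPM to 9.84, 11.6 and 8.83 CPM (2.0-fold, edgeR adjusted p = 0.0146), with 11.6 CPM in replicate 3 at 1 µM, and its call was lost without control replicate 1 or 10 µM replicate 2. The others were YME1L1, an inner membrane protease (1.26-fold), and APOOL, a lipid-binding subunit (1.45-fold), while DNAJC11 fell by 0.33 on the log2 scale. Mitochondrial ribosomal and expression genes gave 3 rises (MRPL51, MRPS23 and MRPL27) and 3 falls (MRPS10, MRPS5 and the DNA helicase TWNK) of 34, a called share of 17.6% near the 14.8% of all features. MRPS16, described above, was not on that list. In fits without 1 of the 6 libraries, APOOL and MRPS10 lost the call in 1 to 3 of the 6 cases, and YME1L1, DNAJC11, MRPL51, MRPS23, MRPL27, MRPS5 and TWNK lost it in 4 to 6. DNAJC11, MRPS10, MRPS5 and TWNK were not called without a filter on low counts. TWNK was not called in a fit of the 6 libraries alone.

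Sterol synthesis gave 4 rises and 1 fall among 24 tested of 25 listed genes, 20.8% called beside 14.8% of all features and 19.2% of those with at least 5 CPM. ACAT2, which makes acetoacetyl-CoA for the pathway, was at 312, 304 and 335 CPM in controls and 410.0, 378 and 389 CPM at 10 µM, 1.24-fold higher (edgeR adjusted p = 0.0107), although replicate 1 at 1 µM, a set A library, was at 395 CPM. ACAT2 lost its call without 10 µM replicate 1 (edgeR adjusted p = 0.0558). HSD17B7 and TM7SF2, later steps of the pathway, rose 1.29-fold and 1.32-fold. SC5D, the sterol desaturase that acts near the end, went the other way, from 245, 248 and 293 CPM to 191, 197 and 207 CPM, and replicates 1 and 2 at 1 µM were at 222 and 185 CPM and replicate 3 at 195 CPM. The median of the list was 0.15 at 10 µM and 0.13 for replicate 3 against replicates 1 and 2 at 1 µM. The rise of CYP51A1 was 0.88 on the log2 scale, and that of the next called member, TM7SF2, was 0.40. Among the other called genes named here, HSD17B7 and SC5D lost the call in 1 to 3 of the 6 fits without 1 library, and TM7SF2 lost it in 4 to 6.

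Fatty acid oxidation and ketogenesis held 9 rises and 2 falls among 20 tested of 22 listed genes, a called share of 55% beside 14.8% of all features. HADHB, the beta subunit of the trifunctional protein, was at 118, 128 and 143 CPM in controls and 179.5, 169.8 and 178 CPM at 10 µM, 1.36-fold higher (edgeR adjusted p = 0.00735), with 174 CPM in replicate 3 at 1 µM, and ECI1, an enoyl-CoA isomerase, rose 1.65-fold. In both of these genes the groups did not overlap and replicate 3 at 1 µM lay above replicates 1 and 2. The acyl-CoA dehydrogenase ACADM and the electron-transfer enzyme ETFDH fell by 0.31 and 0.27 on the log2 scale. Lipid synthesis gave 4 rises and no fall among 19 tested of 20 genes (21.1% called beside 14.8%): FADS1 (1.28-fold) and ELOVL6 (1.27-fold), which desaturate and lengthen fatty acids, and the phosphatidate phosphatases LPIN1 (1.23-fold) and LPIN2 (1.31-fold). Of the genes above that passed the test, HADHB kept its call without each of the 6 libraries in turn, ECI1, FADS1, ELOVL6 and LPIN2 lost it in 1 to 3 of the 6 cases, and ACADM, ETFDH and LPIN1 lost it in 4 to 6. ACADM, ETFDH and LPIN1 were not called without a filter on low counts. ETFDH was not called in a fit of the 6 libraries alone.

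Lipoprotein genes gave 4 rises and 3 falls of 18, 38.9% called against 14.8% of all features. APOA1, the main protein of high-density lipoprotein, was at 721, 736 and 676 CPM in controls and 1189, 1270.3 and 1138 CPM at 10 µM, 1.69-fold higher (edgeR adjusted p = 0.0129). At 1 µM it was at 956 and 755 CPM in replicates 1 and 2 and 1371 CPM in replicate 3, the highest of these 9 libraries. APOC1 and APOC3, exchangeable apolipoproteins, rose 1.59-fold and 1.46-fold, and APOB, the structural protein of very-low-density lipoprotein, 1.33-fold. LIPC, the hepatic lipase, went from 69.2, 70.5 and 64.8 CPM to 50.2, 49.6 and 48.2 CPM (0.724 times control), with 60.5 and 62.5 CPM in replicates 1 and 2 at 1 µM and 56.1 CPM in replicate 3, and APOH fell by 0.40 on the log2 scale. When 1 of the 6 libraries was left out in turn, APOA1 and LIPC kept their calls throughout, and APOC1, APOC3, APOB and APOH lost it in 4 to 6 of the 6 cases. APOH was not called without a filter on low counts.

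Lists of glucose metabolism and insulin signalling gave 4, 2 and 2 calls. Their called shares were 20%, 15.4% and 11.8% beside 14.8% of all features. Among 20 tested of 22 glycolytic and transport genes, PGK1 (1.33-fold), the lactate exporter SLC16A3 (1.5-fold) and ENO1 (1.17-fold) rose and the aldolase ALDOC fell by 0.41 on the log2 scale. PGK1 was at 347, 368 and 421 CPM in controls, 514, 498 and 494 CPM at 10 µM and 517 CPM in replicate 3 at 1 µM. Of 13 tested gluconeogenic and glycogen genes of 14, SLC37A4, the glucose-6-phosphate transporter, rose 1.31-fold, and PPP1R3B, a glycogen-targeting phosphatase subunit near 1 CPM, 1.66-fold. Of 17 tested insulin and IGF genes of 21, INSR, the insulin receptor, went from 46, 43 and 42.2 CPM to 61.2, 60.6 and 66.4 CPM (1.43-fold, edgeR adjusted p = 0.00963), and IGFBP1, a secreted IGF-binding protein, from 98.1, 98.8 and 115 CPM to 142, 173 and 145 CPM (1.48-fold). IGFBP1 was at 140.0 and 150.4 CPM in replicates 1 and 2 at 1 µM, within the range of the 10 µM libraries or close to it, whereas INSR was at 36.9 and 43.2 CPM there and at 59.9 CPM in replicate 3. With each of the 6 libraries left out in turn, PGK1, SLC37A4 and INSR kept their calls throughout, ALDOC and IGFBP1 lost it in 1 to 3 of the 6 cases, and SLC16A3, ENO1 and PPP1R3B lost it in 4 to 6. PPP1R3B was not called by DESeq2 or limma-voom. SLC16A3, ENO1 and PPP1R3B were not called without a filter on low counts. ENO1 and PPP1R3B were not called in a fit of the 6 libraries alone.

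Of 16 tested plasma carriers of 17, CP, SERPINA1, AFP and ORM1 fell and A1BG rose. SERPINA1, alpha-1-antitrypsin, was at 5934, 6492 and 6984 CPM in controls and 4839.7, 4757 and 4746 CPM at 10 µM, 0.739 times control (edgeR adjusted p = 0.0259), and AFP, the fetal carrier kept by HepG2, fell by 0.33 on the log2 scale. CP, the copper carrier ceruloplasmin, fell by 0.41, ORM1 by 0.34, and A1BG rose 1.44-fold from a control mean of 5.35 CPM. Without control replicate 3 the log2 fold changes of CP and AFP were -0.25 and -0.19. Of 23 tested coagulation and complement genes of 25, F11 (0.56), F7 (0.44) and FGB (0.32) fell by these log2 amounts, while C4BPB (1.45-fold) and CFB (1.18-fold) rose. F11, coagulation factor XI, stood at 36.3, 35.1 and 43.6 CPM in controls and 25.9, 25.4 and 26.7 CPM at 10 µM, with 26.6 CPM in replicate 3 at 1 µM. The called shares were 31.2% of carriers and 21.7% of coagulation and complement genes, beside 14.8% of all features and 19.2% of those with at least 5 CPM. SERPINA1 was at 5138 CPM in replicate 3 at 1 µM, and it lost its call without control replicate 2 or 3 or any 1 of the 10 µM libraries (edgeR adjusted p = 0.0631 to 0.0909). No control of SERPINA1 or F11 reached down to a 10 µM library. In fits without 1 of the 6 libraries, F11 kept its call throughout, CP lost it in 1 to 3 of the 6 cases, and AFP, ORM1, A1BG, F7, FGB, C4BPB and CFB lost it in 4 to 6. AFP, ORM1, F7, FGB and CFB were not called without a filter on low counts. AFP was not called in a fit of the 6 libraries alone.

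Among 19 hepatocyte transcription factors, FOXA1, a pioneer factor of liver genes, went from 47.5, 48.5 and 45.9 CPM to 33, 33.9 and 33.8 CPM (0.709 times control, edgeR adjusted p = 0.0101) and was at 33.3 CPM in replicate 3 at 1 µM. RXRA, the partner of many nuclear receptors, rose 1.35-fold. In all, 1 of the 19 rose and 2 fell, a called share of 15.8% near the 14.8% of all features. Of 11 tested bile acid genes of 16, the exporter subunit SLC51A and the conjugating ligase SLC27A5 rose 1.43-fold and 1.46-fold. Of 7 tested aryl hydrocarbon receptor genes of 10, NQO1, a quinone reductase, rose 1.17-fold and ARNT, the receptor's partner, fell to 0.804 times control. Of 14 tested drug metabolism genes of 23, CYP3A7, the fetal CYP3A enzyme, fell to 0.744 times control, from 9.69, 8.65 and 11.7 CPM to 7.54, 7.04 and 7.73 CPM. Its 1 µM values were 9.52 and 7.36 CPM in replicates 1 and 2 and 8.55 CPM in replicate 3, which lay between them and above all 10 µM libraries. NQO1 was at 453, 457 and 488 CPM in controls, 554, 528 and 551 CPM at 10 µM and 532 and 501 CPM in replicates 1 and 2 at 1 µM, with 553 CPM in replicate 3. The called shares of the bile acid, aryl hydrocarbon receptor and drug metabolism lists were 18.2%, 28.6% and 7.14%, beside 14.8% of all features. Among the called genes named here, FOXA1 kept its call without each of the 6 libraries in turn, RXRA and SLC51A lost it in 1 to 3 of the 6 cases, and SLC27A5, NQO1, ARNT and CYP3A7 lost it in 4 to 6. NQO1, ARNT and CYP3A7 were not called without a filter on low counts. NQO1 was not called in a fit of the 6 libraries alone.

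Lists close to the known targets of caffeine gave 1 to 4 calls each. Against 14.8% of all features, the called share was 25% of adenosine genes, 7.14% of phosphodiesterases, 23.5% of cyclic AMP pathway genes, 33.3% of calcium genes and 12.5% of DNA damage kinases and checkpoint genes. Of 8 tested adenosine genes of 10, ADORA2B, the low-affinity receptor that raises cyclic AMP, was at 30.1, 29.2 and 26.2 CPM in controls and 34.7, 34.5 and 33.1 CPM at 10 µM, 1.20-fold higher (edgeR adjusted p = 0.0312). At 1 µM it was at 35.1 and 36 CPM in replicates 1 and 2 and 34.9 CPM in replicate 3, so that all 3 lay above the controls and just above the 10 µM libraries. ADORA2B lost its call without control replicate 2 or 3 or any 1 of the 10 µM libraries, without a filter, and in a fit of these 6 libraries alone (edgeR adjusted p = 0.0566 to 0.105). NT5E, the enzyme that makes adenosine outside the cell, fell to 0.829 times control. Of 14 tested phosphodiesterases, from 17 in the table, PDE11A alone was called, at 12.3, 7.79 and 11 CPM in controls and 14.7, 13.1 and 15.3 CPM at 10 µM (edgeR adjusted p = 0.0397). PDE11A was at 11.4 CPM in replicate 3 at 1 µM, within the control range, and its call was lost without control replicate 2 or 3 or any 1 of the 10 µM libraries (edgeR adjusted p = 0.0558 to 0.181), and with the replicate block (edgeR adjusted p = 0.0553). Of 17 tested cyclic AMP pathway genes of 18, PRKAR2A, a regulatory subunit of protein kinase A, rose 1.25-fold, and the transcription factors ATF1, CREM and CREB3L3 fell by 0.63, 0.43 and 0.88 on the log2 scale. ATF1 and CREB3L3 were at 22 and 29.1 CPM in replicate 3 at 1 µM, against 10 µM means of 21.8 and 29 CPM. Of the other genes above that passed the test, PRKAR2A, ATF1 and CREM lost the call in 1 to 3 of the 6 fits without 1 library, and NT5E and CREB3L3 lost it in 4 to 6. NT5E and CREB3L3 were not called without a filter on low counts. NT5E was not called in a fit of the 6 libraries alone.

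Of 12 tested genes of calcium release and refill in the endoplasmic reticulum, from 15, ITPR1, the inositol trisphosphate receptor, was at 27.6, 24.6 and 30.0 CPM in controls and 40.5, 38.7 and 49 CPM at 10 µM (1.56-fold, edgeR adjusted p = 0.0108). It was at 31.4 CPM in replicate 3 at 1 µM, below all 10 µM libraries, and at 22.8 and 30.2 CPM in replicates 1 and 2, and the log2 difference of 10 µM from replicate 3 was 0.44 with a 95% interval from -0.01 to 0.90. Without 10 µM replicate 3 ITPR1 was not called (edgeR adjusted p = 0.0541). The pump ATP2A2 rose 1.19-fold, and STIM2, which senses calcium in the store, went from 22.4, 20.9 and 25.1 CPM to 14.8, 15.6 and 15.5 CPM (0.673 times control), with 17.9 and 19.2 CPM in replicates 1 and 2 at 1 µM and 15 CPM in replicate 3. CALR, a calcium-binding chaperone, fell by 0.40 on the log2 scale. Of 16 kinase and checkpoint genes of the DNA damage response, 12.5% were called, beside 14.8% of all features. PRKDC, the DNA-dependent protein kinase, was at 200.4, 182 and 199.9 CPM in controls and 314, 306 and 372 CPM at 10 µM (1.70-fold), with 269 CPM in replicate 3 at 1 µM. ATR rose 1.39-fold, with 22.5 CPM in replicate 3 at 1 µM against a 10 µM mean of 30.0 CPM. Of 24 p53 targets, BAX (1.44-fold) and SPATA18 (1.19-fold) rose and none fell, a called share of 8.33% beside 14.8% of all features. SPATA18 was at 16.4 CPM in replicate 3 at 1 µM, below all controls, and BAX at 106 CPM. When 1 of the 6 libraries was left out in turn, STIM2 and PRKDC kept their calls throughout, BAX lost it in 1 to 3 of the 6 cases, and ATP2A2, CALR, ATR and SPATA18 lost it in 4 to 6. ATR was not called with DESeq2 size factors or with the replicate block. ATP2A2, CALR and SPATA18 were not called without a filter on low counts. SPATA18 was not called in a fit of the 6 libraries alone.

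Of 32 genes of the G1/S transition and DNA replication 8 rose and none fell (25% called beside 14.8% of all features), with a median log2 fold change of 0.15. PRIM1, the small subunit of DNA primase, was at 20.3, 19.6 and 21.8 CPM in controls and 36.5, 36.8 and 41.1 CPM at 10 µM, a log2 fold change of 0.89 ± 0.21 (edgeR adjusted p = 0.0108). At 1 µM replicates 1 and 2 were at 32 and 28.1 CPM and replicate 3 was the lowest, at 26.7 CPM. All 1 µM libraries lay above the controls and below the 10 µM libraries, and the difference of 10 µM from replicate 3 was 0.52 with a 95% interval from -0.13 to 1.17, which did not pass the test. TYMS, thymidylate synthase, rose 1.33-fold and GINS1, of the replicative helicase, 1.47-fold, with 132 and 12.3 CPM in replicate 3 at 1 µM against 10 µM means of 129 and 14.9 CPM. The median of this list for replicate 3 against replicates 1 and 2 at 1 µM was 0.02. With each of the 6 libraries left out in turn, PRIM1, TYMS and GINS1 kept their calls throughout.

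Of 28 genes of mitosis and G2/M 5 rose and 2 fell (25% called beside 14.8% of all features). BIRC5, survivin, which holds the chromosomal passenger complex at the centromere, was at 20.5, 22.9 and 24.2 CPM in controls and 46.1, 46.4 and 46.3 CPM at 10 µM, a log2 fold change of 1.04 ± 0.14 (edgeR adjusted p = 0.000911). At 1 µM it was at 31.7 and 25.8 CPM in replicates 1 and 2 and 42.4 CPM in replicate 3, which lay just below the 10 µM libraries. CCNB1 (1.40-fold), CENPA (1.46-fold), PBK (1.68-fold) and CDC20 (1.32-fold) rose too, whereas the spindle genes TTK and NUSAP1 fell by 0.42 and 0.36 on the log2 scale. Of 25 recombination and Fanconi genes 5 rose and 2 fell (28% called beside 14.8%). FANCG, FANCD2, RAD54L and FANCC rose 1.24-fold to 1.48-fold, and RBBP8 and PALB2 fell by 0.44 and 0.31. Of 10 tested histone genes of 16, in libraries made from poly(A) RNA that hold few histone reads, H2AC6 alone was called, 10.0% of the list beside 14.8%, and fell to 0.738 times control. In fits without 1 of the 6 libraries, BIRC5, CCNB1, CENPA, PBK and FANCG kept their calls throughout, TTK, FANCD2 and RAD54L lost it in 1 to 3 of the 6 cases, and CDC20, NUSAP1, FANCC, RBBP8, PALB2 and H2AC6 lost it in 4 to 6. NUSAP1, FANCC, PALB2 and H2AC6 were not called without a filter on low counts. PALB2 was not called in a fit of the 6 libraries alone.

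Heat shock genes were lower where they were called: 7 of 18 fell and none rose, a called share of 38.9% beside 14.8% of all features. HSPE1, the mitochondrial co-chaperonin, was at 426, 459 and 773 CPM in controls and 270.1, 267 and 217 CPM at 10 µM. This was 0.456 times control (edgeR adjusted p = 0.00682), with control replicate 3 the highest. At 1 µM HSPE1 was at 524 and 423 CPM in replicates 1 and 2 and 315 CPM in replicate 3. The 0.01 and 0.1 µM groups, also in set A, had means of 349 and 328 CPM. HSPE1 ranged down to 286 CPM in set A and up to 315 CPM in set B. CHORDC1, a partner of HSP90, fell to 0.697 times control. HSPA1B, inducible HSP70, was at 131, 113 and 87 CPM in controls and 28.6, 30.2 and 10.1 CPM at 10 µM, and at 41.7 CPM in replicate 3 at 1 µM. Its near-identical copy HSPA1A was at 26.6 to 44.6 CPM in controls and 35.9 to 37.5 CPM at 10 µM and was not called (edgeR adjusted p = 0.972), so the split of reads between the copies is uncertain. The list median was -0.20 for 10 µM against control and -0.20 for replicate 3 against replicates 1 and 2 at 1 µM. Among the called genes named here, HSPE1 and CHORDC1 kept their calls without each of the 6 libraries in turn.

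The called share was 27.3% of amino acid response genes, 19% of unfolded protein response genes, 31.6% of antioxidant genes and 9.09% of metallothionein and zinc genes, against 14.8% of all features. Of 22 amino acid response genes under ATF4, PSAT1 and PSPH of serine synthesis, the transporter chain SLC3A2 and the pseudokinase TRIB3 rose, 1.20-fold to 1.42-fold, while PPP1R15A and GDF15 fell by 0.47 and 0.63 on the log2 scale. Of 21 genes of the unfolded protein response DNAJC3 (1.40-fold) and EDEM1 (1.59-fold) rose, and the lectin chaperones CALR and CANX fell by 0.40 and 0.27. Of 19 tested antioxidant genes of 20 under NRF2, NFE2L2, which encodes NRF2 itself, was at 324, 357 and 402 CPM in controls and 254, 259 and 268 CPM at 10 µM (0.722 times control, edgeR adjusted p = 0.00793). OSGIN1, AKR1C1 and SRXN1 fell by 0.49, 0.45 and 0.23, and AKR1B10 (1.49-fold) and NQO1 rose. AKR1C1, OSGIN1 and SRXN1 differed little between replicate 3 and replicates 1 and 2 at 1 µM (log2 -0.04, 0.08 and 0.09), and 10 µM lay below replicate 3 by 0.31, 0.52 and 0.29, differences that did not pass the test. The zinc importer SLC39A14 rose 1.37-fold among 11 tested metallothionein and zinc genes of 14. Of the genes above that passed the test, PSAT1, SLC3A2, PPP1R15A and NFE2L2 kept their calls without each of the 6 libraries in turn, AKR1C1 lost it in 1 to 3 of the 6 cases, and PSPH, TRIB3, GDF15, DNAJC3, EDEM1, CANX, OSGIN1, SRXN1, AKR1B10 and SLC39A14 lost it in 4 to 6. PSPH, GDF15, EDEM1, CANX and SRXN1 were not called without a filter on low counts. CANX, OSGIN1 and SRXN1 were not called in a fit of the 6 libraries alone.

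Of 28 autophagy and lysosome genes 4 rose and 4 fell (28.6% called beside 14.8% of all features). The cholesterol exporter of the lysosome NPC1 went from 140.4, 131 and 128 CPM to 180.4, 170.2 and 189 CPM (1.35-fold), and ATP6V1H of the proton pump, the hexosaminidase HEXA and the conjugation enzyme ATG7 rose 1.42-fold, 1.17-fold and 1.28-fold. The protease CTSL, the ATG8 family protein GABARAPL1 and the autophagy receptor SQSTM1 fell by 0.49, 0.47 and 0.29 on the log2 scale. NPC1 in replicate 3 at 1 µM was at 167 CPM, on the 10 µM side of replicates 1 and 2. When 1 of the 6 libraries was left out in turn, NPC1 kept its call throughout, ATP6V1H and CTSL lost it in 1 to 3 of the 6 cases, and HEXA, ATG7, GABARAPL1 and SQSTM1 lost it in 4 to 6. HEXA, ATG7 and SQSTM1 were not called without a filter on low counts. HEXA and SQSTM1 were not called in a fit of the 6 libraries alone.

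Genes of translation gave a mixed picture. Of 79 cytosolic ribosomal proteins 12 rose and 3 fell, a called share of 19.0% beside 14.8% of all features and 19.2% of those with at least 5 CPM, and their median was 0.11. RPS19, of the small subunit, went from 323, 348 and 317 CPM to 688, 679 and 603 CPM (2.0-fold, edgeR adjusted p = 0.00515), with 759.6 CPM in replicate 3 at 1 µM, and RPLP2, the partner of RPLP1, rose 1.78-fold. RPL7A and RPS6 fell by 0.49 and 0.39 on the log2 scale. Ribosomal protein genes have many processed copies in the genome, so their counts are uncertain. Over the list, 10 µM lay below replicate 3 at 1 µM by a median of 0.13. With each of the 6 libraries left out in turn, RPS19, RPLP2 and RPL7A kept their calls throughout, and RPS6 lost it in 4 to 6 of the 6 cases. RPS6 was not called without a filter on low counts.

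Of 20 SR splicing factors and their kinases 6 fell and 1 rose (SRSF8, 1.37-fold), 35% called beside 14.8% of all features, with a median of -0.20. TRA2A went from 56.8, 63.8 and 75.4 CPM to 46.6, 45.1 and 48.9 CPM (0.718 times control) and SRSF11 fell by 0.43 on the log2 scale. Without control replicate 3 the log2 fold change of SRSF11 was -0.25. Of 19 nonsense-mediated decay genes 5 fell and 1 rose (31.6% called beside 14.8%), with a median of -0.09. UPF3B, which links the exon junction complex to UPF1, was at 39.1, 47.6 and 51 CPM in controls and 24.2, 24.7 and 24.4 CPM at 10 µM, a log2 fold change of -0.91 ± 0.13 (edgeR adjusted p = 0.000957). At 1 µM UPF3B was at 38.4 and 38.3 CPM in replicates 1 and 2 and 27.5 CPM in replicate 3, between the other groups. UPF2 and UPF3A fell to 0.702 and 0.679 times control, PNRC2 and GSPT1 by 0.71 and 0.26 on the log2 scale, and SMG8 rose 1.17-fold. In fits without 1 of the 6 libraries, UPF3B, UPF2 and UPF3A kept their calls throughout, SRSF8, TRA2A, SRSF11 and PNRC2 lost it in 1 to 3 of the 6 cases, and GSPT1 and SMG8 lost it in 4 to 6. SMG8 was not called with DESeq2 size factors or with the replicate block. GSPT1 and SMG8 were not called without a filter on low counts. GSPT1 and SMG8 were not called in a fit of the 6 libraries alone.

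Of 13 tested host transcripts of small nucleolar RNAs, from 14, many of which are known to be degraded by that pathway, 4 rose and 1 fell (38.5% called beside 14.8% of all features). SNHG3 went from 20.8, 22 and 22.7 CPM to 42.1, 41.8 and 42.5 CPM (1.93-fold, edgeR adjusted p = 0.00285), SNHG8 rose 1.98-fold, SNHG12 1.68-fold and SNHG29 1.40-fold, and SNHG6 fell by 0.60 on the log2 scale. Replicate 3 at 1 µM was at 41.6 CPM for SNHG3 and replicates 1 and 2 at 29.9 and 22.7 CPM. For the UPF factors, which fell, and the 4 hosts that rose, replicate 3 at 1 µM lay on the 10 µM side of replicates 1 and 2. Among the called genes named here, SNHG3, SNHG8, SNHG12 and SNHG29 kept their calls without each of the 6 libraries in turn, and SNHG6 lost it in 4 to 6 of the 6 cases. SNHG6 was not called without a filter on low counts.

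Immediate early genes, which cells switch on within minutes of serum or cyclic AMP signals, had 9 of 22 tested genes of 26 fall and none rise, a called share of 40.9% beside 14.8% of all features, with a median of -0.38. EGR1, a zinc finger factor induced by serum, was at 26, 25.1 and 14.8 CPM in controls and 10.7, 12.1 and 8.83 CPM at 10 µM, 0.479 times control (edgeR adjusted p = 0.00933). At 1 µM it was at 15.7 and 16.1 CPM in replicates 1 and 2 and 8.36 CPM in replicate 3, below all the 10 µM libraries. The AP-1 genes JUND and JUNB fell by 0.67 and 0.60 on the log2 scale, and JUND went from 66.2, 76.5 and 83 CPM to 46.7, 58.9 and 36.3 CPM, with 61.5 CPM in replicate 3 at 1 µM. JUND lost its call without control replicate 2 or 3, without 10 µM replicate 1 or 3, and without a filter (edgeR adjusted p = 0.0619 to 0.110). DUSP6, a phosphatase of ERK, fell by 0.38, IER3 by 0.69, KLF10 by 0.48, and CCN1 and CCN2, matricellular proteins under YAP and serum response factor, by 0.40 and 0.25. APOLD1, described above, was the ninth. For replicate 3 against replicates 1 and 2 at 1 µM the list median was -0.46. None of 17 tested clock genes of 18 was called with edgeR, limma-voom or DESeq2, and 2 had unadjusted edgeR p-values under 0.05. Of the other genes above that passed the test, EGR1 kept its call without each of the 6 libraries in turn, DUSP6 and CCN1 lost it in 1 to 3 of the 6 cases, and JUNB, IER3, KLF10 and CCN2 lost it in 4 to 6. JUNB, IER3 and CCN2 were not called without a filter on low counts. CCN2 was not called in a fit of the 6 libraries alone.

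The promoters of EGR1 and JUND are shown because both genes fell and hold a motif for serum or cyclic AMP signals. The 250 bases before the RefSeq start were searched on both strands for CCATATTAG, the start of 1 form of the serum response element, and for TGACGTCA, the cyclic AMP response element, and capitals mark the match. CCATATTAG was found in 26 of 27305 promoters (0.0952%), and in EGR1 among the 16 tested immediate early genes with a promoter in the table. Other forms of the serum response element were not searched and carry no capitals, so these counts are not counts of that element. TGACGTCA was found in 555 of 27305 (2.03%), and in JUND and DUSP1 among those 16. Of the 6 such genes called lower, 1 held CCATATTAG (EGR1) and 1 held TGACGTCA (JUND). DUSP1 was not called lower. The sequences come from RefSeq on GRCh38.p14, at chr5:138465229-138465478 on the plus strand for EGR1 and chr19:18281623-18281872 on the minus strand for JUND. A match describes the letters and is not a measured site or a cause.
EGR1: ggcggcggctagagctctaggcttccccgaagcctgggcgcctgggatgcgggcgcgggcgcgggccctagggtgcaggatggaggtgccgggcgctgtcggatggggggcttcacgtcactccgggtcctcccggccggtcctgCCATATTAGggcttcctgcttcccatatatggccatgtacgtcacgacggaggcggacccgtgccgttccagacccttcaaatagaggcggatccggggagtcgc
JUND: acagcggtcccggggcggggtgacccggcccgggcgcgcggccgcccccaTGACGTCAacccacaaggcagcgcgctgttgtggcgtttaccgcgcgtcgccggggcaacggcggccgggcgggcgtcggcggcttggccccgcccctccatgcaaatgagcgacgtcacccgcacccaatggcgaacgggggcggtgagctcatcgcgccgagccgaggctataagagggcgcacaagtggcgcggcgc

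Of the 5 features called with the library set as a term, RGPD6 and ZACN have symbols, 1 is an antisense transcript and 2 are unannotated loci. RGPD6, a member of a family of near-identical RANBP2 copies, was at 10.1, 7.53 and 9.55 CPM in controls, 10.2 and 15.2 CPM in replicates 1 and 2 at 1 µM, 1.29 CPM in replicate 3 and 25.8, 22.1 and 22 CPM at 10 µM. It was not called against control (edgeR adjusted p = 0.0740) but was against replicate 3 (edgeR adjusted p = 0.000279), with a log2 difference of 4.17 and a 95% interval from 3.29 to 5.06. The low library was the 1 µM one, not a control. ZACN, a zinc-activated channel, was at 0.428, 0.338 and 0.268 CPM in controls, 0.204, 0.385 and 0.523 CPM at 10 µM, 0.154 and 0.158 CPM in replicates 1 and 2 at 1 µM and 18 CPM in replicate 3. Replicates 1 and 2 at 1000 µM, which are also in set B, were at 15.8 and 16.9 CPM, whereas replicate 2 at 100 µM, in set B too, was at 0.256 CPM. The set-adjusted log2 value of ZACN was -6.72. The second feature called against replicate 3 (edgeR adjusted p = 0.000472), the antisense transcript ENSG00000269243.1, had means of 0.430 CPM in controls and 0.103 CPM at 10 µM, and it was 3.24 higher on the log2 scale in replicate 3 than in replicates 1 and 2 at 1 µM. Without strand in the counting, reads of an antisense transcript and its partner cannot be told apart.

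Transcript length was compared as a property that the calls did not use. Protein-coding genes called higher and lower had median exonic lengths of 4556 and 4617.5 bases, against 4931 for all 13002 tested. Those called higher and lower in replicate 3 against replicates 1 and 2 at 1 µM had medians of 3460.5 and 4877 bases. The shortest length quintile held 293 rises and 211 falls at 10 µM against control, and the longest 197 and 162, of 2601 genes each. From the shortest to the longest length quintile, the median log2 difference of 10 µM from replicate 3 at 1 µM ran from -0.11 to 0.10. The median of 10 µM against control was 0.03 and 0.05 in these end quintiles. The part of length in these differences was not tested.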

How the data were processed

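RNA of HepG2 cells was purified on poly(dT) beads and reverse transcribed with SmartScribe, per the labels' protocols. The values are raw read counts per feature as deposited by the authors. HISAT2, DESeq2 and GRCh38 are named per the submitters' processing notes, without their roles. The counting tool, annotation release and use of strand are not given in the sources used here. The table held 37637 features, of which 4700 were unannotated loci, and 21 more sample columns were left aside. Types, positions and exonic lengths came from GENCODE 29 (32329 features matched).

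Counts of all 21 libraries (23502519 to 44815552 per library) were fitted with edgeR 4.0.16 in R 4.3.3: TMM scaling, the default filter by group, robust quasi-likelihood tests and Benjamini-Hochberg adjustment over 17951 features, with a threshold of 0.05. A second fit gave replicate 3 at 1 µM a level of its own. CPM are scaled by TMM library size, and log2 fold changes are those of the fit. Library sets came from average linkage on 13 mitochondrial mRNAs. Alternatives used DESeq2 1.42.0, limma 3.58.1, other filters and scaling, fewer libraries, the replicate number and the library set.

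Named were MICOS10 and CYP51A1. The 8 largest rises and 8 largest falls were taken among called genes with at least 5 CPM and groups that did not overlap. Genes without a symbol, and those typed or named as pseudogene or antisense, were left out of these rankings. Also named were up to 3 called members of each list by p, and features with a symbol called with the library set as a term. Further members that spell out counts, other immediate early genes, and neighbouring genes were chosen after their values were seen. The members and gene lists were chosen with earlier results of these data known. Some genes that the rule names are not reported here.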

Additional observations from a re-analysis of the deposited data

How the results depend on the processing

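At 10 µM against control, 2650 features were called. The number was 2628 with DESeq2 size factors, 3194 with the DESeq2 Wald test, 2673 with limma-voom, 2503 at a mean of at least 5 CPM, 3622 with only control and 10 µM libraries and 2515 among annotated genes. It fell outside 1.5 times only without a filter, with 1748 calls (57.0% higher, against 49.2%), with the library set as a term (5 calls), and without any 1 library except control replicate 3. Leaving out 1 library gave 1039 to 1911 calls: 1732, 1624 and 1911 without control replicates 1, 2 and 3, and 1039, 1203 and 1288 without 10 µM replicates 1, 2 and 3. Without 1 µM replicate 3, chosen after seeing the data, there were 3266. The replicate block gave 2272. Same-numbered control and 10 µM libraries deviated with correlations of -0.0074, 0.0789 and 0.0586, and unlike-numbered ones with -0.116 to 0.0424. Pairing by number was not tested. With the replicate block 19 called named genes lost their call. They were ACADM, APOH, ARNT, ATP2A2, ATR, CANX, CDC20, ENO1, NQO1, NT5E, ORM1, PDE11A, PPP1R3B, PSPH, RPS6, SMG8, SPATA18, SRXN1 and TRIB3.

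The share of calls for which replicate 3 at 1 µM lay in the direction of 10 µM was 94.7%, 95.8% without a filter, and 93.9% to 96.2% with 1 library left out. The calls of 10 µM against replicate 3 were 2, with 1 at a mean of at least 5 CPM and 3 without a filter. Those of replicate 3 against replicates 1 and 2 were 215, with 346 at a mean of at least 5 CPM, and 198 and 40 without 1 µM replicates 1 and 2.

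Over the named genes and settings, 1971 values kept direction and side of the threshold, 658 kept direction but lost their call, and 4 kept direction and gained one. The other 36 changed sign, and calls lost among them are not in the 658. None of the 163 called named genes was called with the library set as a term, where 886 features had an unadjusted edgeR p under 0.05, and 11 of 43 list medians changed sign. That term rests on 1 library, replicate 3 at 1 µM, and the cause was not tested. With it, the log2 fold changes that changed sign were CYP51A1 -0.0034, TIMM13 -0.10, RPLP1 -0.14, S100A6 -0.39, APOLD1 1.78, LINC01823 0.62, ECI1 -0.00839, SLC27A5 -0.19, ARNT 0.15, CALR 0.13, BAX -0.0144, DNAJC3 -0.13, SLC39A14 -0.10, NDUFA2 -0.0904, MICOS13 -0.26, RPLP2 -0.18, SRSF8 -0.0658, TRA2A 0.000813, DUSP6 0.0421, INSR -0.0589, ZACN -6.72, ACADM 0.0304, APOH 0.0285, ORM1 0.21, AKR1B10 -0.26, APOOL -0.0616, DNAJC11 0.12, PNRC2 0.30, IER3 0.16, KLF10 0.0285, DDX47 -0.0274, MICOS10-NBL1 -0.23. ZACN, uncalled, was at -0.022 with the replicate block, and between -0.22 (without 10 µM replicate 3) and 0.37 (without 10 µM replicate 1) with 1 library left out, among them -0.029 without control replicate 3, and HSPA1A, also uncalled, at -0.15 without control replicate 1. Depth limits low genes most: values under 1 CPM rest on few reads.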
